A study of Mus musculus with 6 samples.

Results

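The genes described here are 42 genes of the cell cycle and of DNA replication, among the 16300 genes of an RNA-seq table of cultured mouse granulosa cells (GCs), the follicle's somatic cells around the oocyte. They were chosen by gene symbol and fall into 8 G1 cyclins, CDK inhibitors and their transcription factor, 13 genes of DNA replication and 21 genes of mitosis. All 42 genes were in the table and all 42 passed the filter on low values. The libraries came from wild type C57BL/6J mice aged 8 to 9 weeks, and per the study's methods the GCs of 5 mice were pooled for each library. Control GCs (n = 3 libraries) received medium, and treated GCs (n = 3 libraries) received 25 nM dihydrotestosterone (DHT), an androgen that is not converted to estrogen, for 24 h. Per the study's methods, the cells of both groups were grown in serum and then starved of it before treatment. The comparison asks which transcripts differ after exposure to the androgen. The groups follow the treatment that the labels give each sample, although the free text of the labels names DHT for every sample and describes the extracted material as whole ovary.

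The cell cycle is driven by cyclin-dependent kinases (CDKs), whose cyclin partners appear and disappear in turn. D-type and E-type cyclins act in G1, where E2F factors switch on the genes of DNA synthesis, and the CDK inhibitors p21 and p27 hold the kinases back. Genes of mitosis peak later, when cyclin B and CDK1 drive chromosome condensation, spindle assembly and division. In the growing follicle, GC proliferation depends on cyclin D2 and is opposed by p27, and GCs leave the cycle as they luteinize.

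The reads recovered per library numbered 38486526, 41366587 and 41928585 in the controls and 39777305, 36111177 and 36240461 after DHT. The GC markers *Inha*, *Inhba*, *Foxl2* and *Amhr2* were present in every library. *Fshr* (135 to 168 normalized counts) and *Amh* (63.3 to 196) were present at lower counts. The summed normalized count of the 9 measured GC markers was 120558 to 131528 in the controls and 104625 to 110848 after DHT. Within that sum, *Inha* alone had a mean of 54181 in the controls and 35515 after DHT. Of these 9, 3 were lower after DHT, *Inha* (log2 fold change -0.61, adjusted p = 0.0016 by limma), *Esr2* (log2 fold change -0.36, adjusted p = 0.0015 by limma) and *Foxl2* (log2 fold change -0.15, adjusted p = 0.049 by limma), and 1 was higher, *Hsd17b1* (log2 fold change 0.48, adjusted p = 0.0044 by limma). The call of *Foxl2* was lost in 5 of the 6 fits with a library left out, with an adjusted p of up to 0.14 by limma. Of 10 listed GC markers, *Cyp19a1* was not analysed here. The sum of 7 stromal and theca markers was 6293, 8811 and 7579 in the controls and 9886, 11474 and 11728 after DHT, most of it *Acta2* (smooth muscle actin), which was higher after DHT (log2 fold change 0.76, adjusted p = 0.0056 by limma with Benjamini-Hochberg adjustment). The other 6 stromal and theca markers measured were not called, and 5 of them had negative differences, from -1.05 for *Dcn* (unadjusted p = 0.017, adjusted p = 0.10 by limma) to -0.13 for *Col1a1* on the log2 scale. Among the 6, the normalized counts over the 6 libraries were 1063 to 1479 for *Col1a1*, 378 to 773 for *Col1a2*, 66.5 to 319 for *Dcn* and 49.9 to 152 for *Pdgfra*, while *Lum* and *Tcf21* reached at most 34.4 and 27.7 normalized counts in any library, and *Cyp17a1* was not analysed here. The sum of 7 oocyte markers was 813, 307 and 331 in the controls and 590, 36.0 and 619 after DHT. The oocyte marker *Zp3* was at 0 in DHT replicate 2. The sums of the endothelial (197 to 277), leukocyte (362 to 605) and surface epithelium markers (454 to 948) were low throughout, and *Csf1r*, a macrophage receptor, was lower after DHT (log2 fold change -0.64, adjusted p = 0.027 by limma). The call of *Csf1r* was lost without control replicate 1, DHT replicate 2 or DHT replicate 3, with an adjusted p of up to 0.10 by limma. The other 3 leukocyte markers measured were not called. *Ptprc*, the leukocyte surface protein CD45, had normalized counts of 5.94, 8.36 and 11.1 in the controls and 15.7, 12.0 and 15.2 after DHT, with all DHT values above all controls (log2 fold change 0.72, adjusted p = 0.22 by limma), and *Lyz2* and *Cd68* had log2 fold changes of -0.11 and -0.075. The part of these other cells in the results was not tested.

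Of the 42 genes, 1 was higher and 6 were lower after DHT at an adjusted p of at most 0.05 (limma on log2 of the normalized count + 1, Benjamini-Hochberg adjustment over 16292 genes). That is 2.38% of the members beside 6.52% of all genes tested for higher values, and 14.3% beside 4.66% for lower values. Without DHT replicate 2 or 3, 1 of the 42 members was lower (2.38%), beside 2.36% and 2.15% of all genes tested in those fits, and without control replicate 2 or 3, 2 (4.76%) and 3 (7.14%) were lower, beside 3.31% and 5.26%. Without control replicate 1 or DHT replicate 1, 10 (23.8%) and 9 (21.4%) were lower, beside 3.28% and 3.29%. In either direction, 11.2% of all genes passed. Of the members, 6 with positive and 15 with negative differences had an unadjusted p under 0.05, which 13.4% and 11.8% of all genes tested had. None of the 42 passed the study's additional rule of an absolute log2 fold change above 1, which 1.31% of all genes tested met, and the largest absolute log2 fold change among them was 0.71. The higher gene was *Pcna*, the sliding clamp of the replication fork. The lower genes were *Ccnd1* of the G1 cyclins and 5 genes of mitosis, *Ccnb2*, *Ube2c*, *Cdc20*, *Prc1* and *Cenpf*. The other 35 did not pass the test. In bulk RNA, fewer cells in a phase of the cycle and less RNA in each such cell cannot be told apart.

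The fitted differences were summarized by role, and the roles were not tested against each other. Their ranges overlapped, at -0.71 to 0.25 for the G1 genes, -0.14 to 0.28 for the replication genes and -0.41 to 0.047 for the mitosis genes. The median log2 fold change was -0.18 over the 21 mitosis genes, 0.062 over the 13 replication genes and -0.056 over the 8 G1 genes, beside a median of -0.0052 over all genes tested. Of the mitosis genes 20 had a negative and 1 a positive difference, of the replication genes 3 and 10, and of the G1 genes 5 and 3. The groups did not overlap for 5 members with higher values after DHT (*E2f1*, *Mcm4*, *Mcm6*, *Pcna* and *Cdt1*), beside 15.9% of all genes tested, and for 9 with lower values (*Ccnd1*, *Ccnd2*, *Rrm1*, *Ccnb2*, *Cdc20*, *Cenpf*, *Birc5*, *Ube2c* and *Prc1*), beside 14.7%. Each group thus held 3 pools of mice by the study's methods, although the labels do not name the pools, and the p-values measure the spread between such pools.

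**Figure D1:**
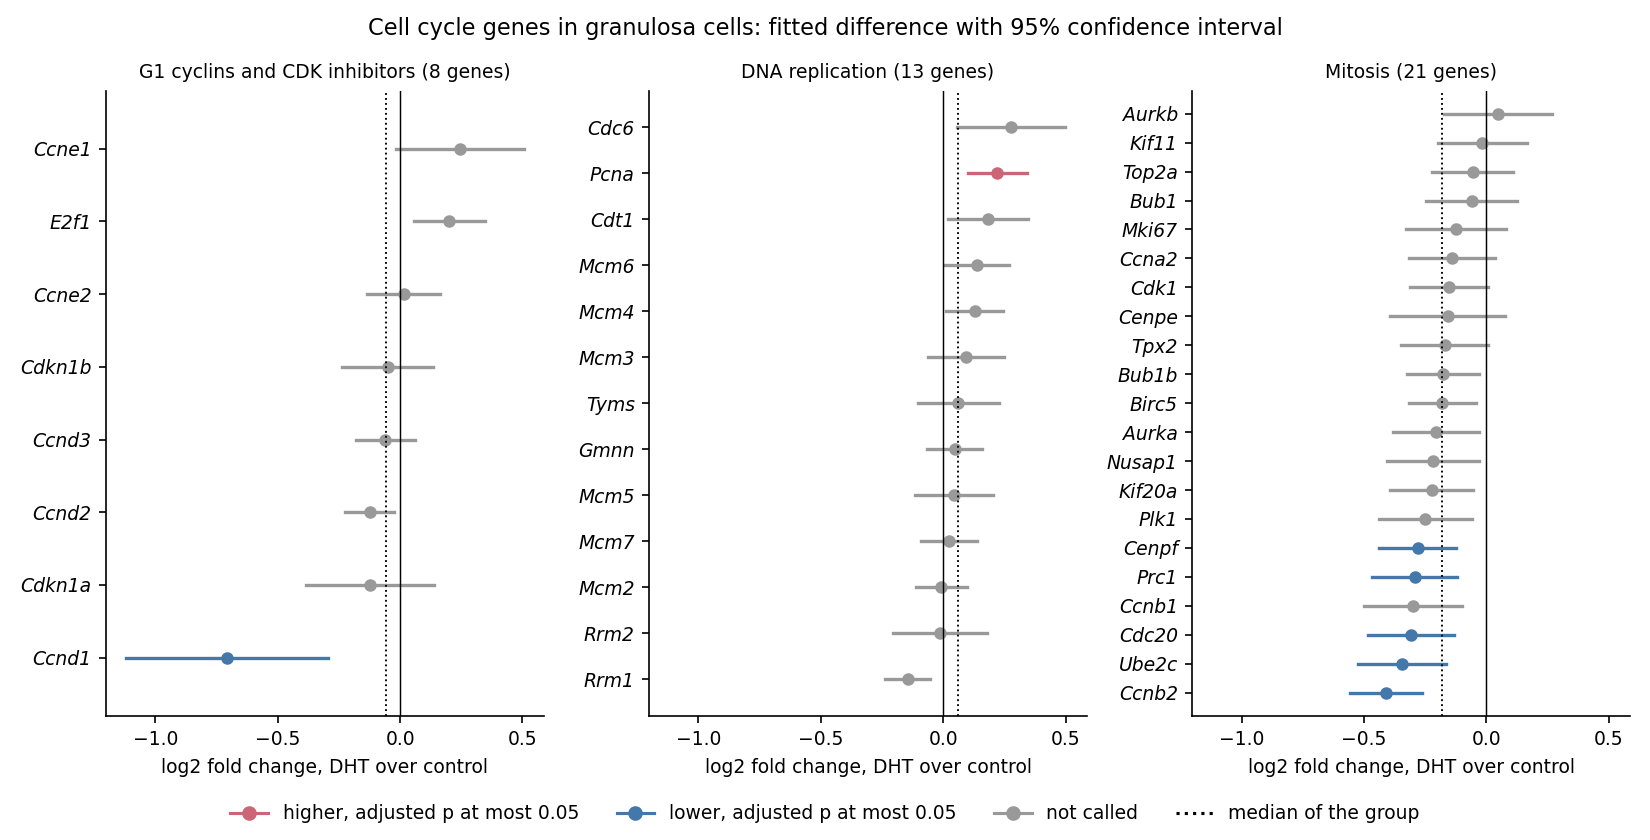
Fitted log2 fold change (DHT over control) of each of the 42 genes with its 95% confidence interval, in 3 panels by role. Of the genes called, *Pcna* lies to the right of 0, and *Ccnd1* and 5 mitosis genes lie to the left. Over all 42 genes, 14 differences are positive and 28 negative. The dotted median of the mitosis genes lies at -0.18.

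Among the G1 genes, *Ccnd1* encodes cyclin D1, a partner of CDK4 and CDK6 that carries growth signals into G1. It lies at chr7:144929931-144939925 (GRCm38, minus strand). Its normalized counts were 219.7, 155 and 176 in control replicates 1, 2 and 3 and 87.1, 123 and 127 in DHT replicates 1, 2 and 3. Every DHT library lay below every control library, with the lowest value in DHT replicate 1 and the highest in control replicate 1. The mean was 184 ± 32.9 in control GCs and 113 ± 22.2 after DHT (SD, n = 3 each), a fitted difference of -38.7% (log2 fold change -0.71, SE 0.18, limma with Benjamini-Hochberg adjusted p = 0.039). The call held with control replicate 2 left out (adjusted p = 0.045 by limma) and was lost without any other library, the largest adjusted p by limma being 0.11 without control replicate 1. Exons of *Ccnd1* overlap those of *LTO1* on the other strand over 1100 bases, and the strand setting of the counting is not given in the sources used here, so reads of the pair could not be told apart. The same holds for *Ccnd2* (740 bases shared with 9330179D12Rik and Gm43126), *Cdkn1a* (273), *Mcm7* (385, with Cops6 and Ap4m1), *Cdc20* (53, with Elovl1) and *Kif20a* (1271, with *Cdc23*). It also holds for *Ccne2* (609), *Ccna2* (510), *Ccnd3* (361), *Nusap1* (172) and *Plk1* (156), and for *Ube2c* and *Prc1*, given below.

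Cyclin D2, encoded by *Ccnd2*, is the D-type cyclin that GCs of the mouse need to proliferate. The *Ccnd2* normalized counts were 16902, 15230.0 and 15754 in control replicates 1, 2 and 3 and 14588, 14386 and 14906 in DHT replicates 1, 2 and 3. All DHT values lay under all control values, and the difference did not pass the test (log2 fold change -0.12, SE 0.045, limma with Benjamini-Hochberg adjusted p = 0.12, 95% confidence interval -0.23 to -0.024). Per kilobase of exon, *Ccnd2* stood at 1626 normalized counts, *Ccnd3* at 233 and *Ccnd1* at 31.4, the lowest level of the 42 genes. By level per kilobase, *Ccnd2* made up 86.0% ± 0.997 of the D-type cyclin transcripts in control GCs and 86.1% ± 0.28 after DHT (SD, n = 3 each), a difference of 0.12 percentage points (exact permutation test, two-sided, p = 1). With 3 libraries against 3, an exact permutation test cannot go below p = 0.1. The difference in this share was -0.45 points without control replicate 2, -0.028 without DHT replicate 1 and -0.13 without division by exon length. The share of *Ccnd1* was 2.25%, 1.73% and 1.93% in the controls and 1.03%, 1.47% and 1.47% after DHT, and these values did not overlap. Cyclin D3 was not called (*Ccnd3*, log2 fold change -0.061, SE 0.054, limma with Benjamini-Hochberg adjusted p = 0.54).

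The CDK inhibitors were abundant and were not called. *Cdkn1b* encodes p27, which binds cyclin-CDK complexes and holds cells in G1, and its normalized counts were 9588, 7620.1 and 9646 in control replicates 1, 2 and 3 and 8894, 8427 and 8455 in DHT replicates 1, 2 and 3. The DHT libraries lay within the range of the controls (log2 fold change -0.051, SE 0.083, limma with Benjamini-Hochberg adjusted p = 0.76, 95% confidence interval -0.24 to 0.14). *Cdkn1a* encodes p21, the inhibitor induced by p53, and its normalized counts were 4578, 4989 and 5891 in control replicates 1, 2 and 3 and 5610.0, 4245 and 4359 in DHT replicates 1, 2 and 3. These groups overlapped as well, with 1 DHT library above 2 of the controls (log2 fold change -0.12, SE 0.12, limma with Benjamini-Hochberg adjusted p = 0.56, 95% confidence interval -0.39 to 0.14). With 1 library left out, its log2 fold change ranged from -0.25 without DHT replicate 1 to -0.024 without control replicate 3.

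Of the E-type cyclins, which pair with CDK2 at entry into S phase, *Ccne1* had normalized counts of 242, 288 and 212 in control replicates 1, 2 and 3 and 288, 293 and 293 in DHT replicates 1, 2 and 3. The controls spread over a wider range than the DHT libraries, and control replicate 2 (288.1) lay just above DHT replicate 1 (287.7) (log2 fold change 0.25, SE 0.12, limma with Benjamini-Hochberg adjusted p = 0.23, 95% confidence interval -0.015 to 0.51). *Ccne2* was not called either (log2 fold change 0.015, adjusted p = 0.92, same test by limma). *E2f1*, an E2F factor that activates genes of DNA synthesis, had 1052, 1202 and 1202 in the controls and 1386, 1289 and 1291 after DHT, in normalized counts. Its DHT values all exceeded its control values, and its adjusted p was 0.081 by limma (log2 fold change 0.20).

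Other regulators of the cell cycle, not all of them of G1, were examined in lists. Of 20 RB, E2F and MuvB genes, 0 passed the test by limma, 4 had an unadjusted p under 0.05, all with positive differences (beside 13.4% of all genes tested), and 12 differences were positive and 8 negative. Of 19 other CDKs, cyclins and CDK inhibitors, 1 was higher (5.26%, beside 6.52% of all genes tested) and 2 were lower (10.5%, beside 4.66%). *Fbxw7*, the ubiquitin ligase subunit that marks cyclin E for degradation, was higher, at 1095, 1225 and 1391 in the controls and 2027, 1713 and 1747 after DHT in normalized counts (log2 fold change 0.57, SE 0.092, limma with Benjamini-Hochberg adjusted p = 0.0050). *Cdkn3*, a phosphatase of CDKs, was lower, at 209, 239.8 and 208 in the controls and 159.5, 133 and 162 after DHT (log2 fold change -0.53, SE 0.12, limma with Benjamini-Hochberg adjusted p = 0.022). *Ccnf*, whose cyclin F product is part of a ubiquitin ligase, was also lower (log2 fold change -0.31, SE 0.070, limma with Benjamini-Hochberg adjusted p = 0.024). *Cdk4* and *Cdk6*, the kinases of the D-type cyclins, were not called (-0.025 and -0.065 as log2 fold changes).

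Among the replication genes, *Pcna* was the 1 of 13 that passed (7.69%, beside 6.52% of all genes tested for higher values). PCNA is the ring that holds DNA polymerase on its template, and the gene lies at chr2:132249162-132253314 (GRCm38, minus strand) with no other gene over its exons. Its normalized counts were 3933, 4384 and 4467 in control replicates 1, 2 and 3 and 5055, 4770.4 and 5066 in DHT replicates 1, 2 and 3. All DHT values exceeded all control values, and the lowest value was that of control replicate 1. The mean rose from 4261 ± 287 to 4964 ± 168 (SD, n = 3 each), a fitted difference of 16.6% (log2 fold change 0.22, SE 0.053, limma with Benjamini-Hochberg adjusted p = 0.029). The call held without control replicate 3 (adjusted p = 0.016 by limma) and was lost when any other library was left out, with adjusted p from 0.051 without control replicate 2 to 0.11 without DHT replicate 3.

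*Cdc6*, which loads the MCM helicase at origins, had the largest difference of the replication genes and was not called. Its normalized counts were 434, 562 and 469.7 in control replicates 1, 2 and 3 and 622, 555 and 591 in DHT replicates 1, 2 and 3. The groups overlapped in 1 control and 1 DHT library (log2 fold change 0.28, SE 0.098, limma with Benjamini-Hochberg adjusted p = 0.11, 95% confidence interval 0.055 to 0.50). Without control replicate 2 its adjusted p by limma was 0.028. *Cdt1*, the partner of *Cdc6* in helicase loading, was not called (log2 fold change 0.18, SE 0.072, limma with Benjamini-Hochberg adjusted p = 0.15), nor was *Gmnn*, whose product geminin restrains *Cdt1* (0.047 on the log2 scale).

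The 6 genes of the MCM helicase, which unwinds DNA at the fork, had log2 fold changes from -0.0073 for *Mcm2* to 0.14 for *Mcm6*, and none was called. *Mcm7* had the highest level per kilobase of the 6, and its normalized counts were 4382, 4851 and 4899.7 in control replicates 1, 2 and 3 and 4957, 4754 and 4651 in DHT replicates 1, 2 and 3. All DHT values of *Mcm7* lay between the lowest control value and 4957, just above the highest control (log2 fold change 0.025, SE 0.050, limma with Benjamini-Hochberg adjusted p = 0.81, 95% confidence interval -0.089 to 0.14). For *Mcm4* and *Mcm6*, the DHT values lay above all control values (adjusted p = 0.15 and 0.17 by limma).

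The 2 subunits of ribonucleotide reductase, which makes deoxynucleotides, had adjusted p-values above the threshold. *Rrm2*, the subunit that follows the cell cycle, had the highest level per kilobase of the 42 genes (1936 normalized counts per kilobase), with normalized counts of 4639, 5683 and 5884 in control replicates 1, 2 and 3 and 5681, 5059 and 5240.0 in DHT replicates 1, 2 and 3. The DHT values lay inside the range of the controls (log2 fold change -0.014, SE 0.085, limma with Benjamini-Hochberg adjusted p = 0.94, 95% confidence interval -0.21 to 0.18). *Rrm1*, the large subunit, had 10070.5, 10428 and 9841 in the controls and 8923, 8994 and 9528 after DHT in normalized counts. Its groups did not overlap, with lower values after DHT, and its adjusted p lay just above the threshold (log2 fold change -0.14, SE 0.040, limma with Benjamini-Hochberg adjusted p = 0.052). Among the alternative fits, *Rrm1* was called lower only without control replicate 3 and with the filter at a mean of at least 50. *Tyms*, thymidylate synthase, was not called (log2 fold change 0.062, adjusted p = 0.65, same test by limma).

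More of the replication machinery was examined in lists of other genes. Of 28 DNA polymerase and fork genes, 2 were higher (7.14%, beside 6.52% of all genes tested) and 0 lower by limma. An unadjusted p under 0.05 was found for 6, all with positive differences, beside 13.4% of all genes tested. Of the 28 differences 22 were positive (median log2 fold change 0.09), as were 7955 of the 16292 over all genes. The genes called were *Pold2*, a subunit of DNA polymerase delta (log2 fold change 0.25, SE 0.054, limma with Benjamini-Hochberg adjusted p = 0.020), and *Lig1*, the ligase that joins Okazaki fragments (log2 fold change 0.21, SE 0.054, limma with Benjamini-Hochberg adjusted p = 0.038). Of 20 genes of origin recognition and helicase loading, 1 was higher (5%), *Wdhd1*, which links the helicase to polymerase alpha (log2 fold change 0.20, SE 0.052, limma with Benjamini-Hochberg adjusted p = 0.044). Of 21 genes of nucleotide supply, 4 were higher (19.0%) and 0 lower by limma. An unadjusted p under 0.05 was found for 7 with positive and 2 with negative differences, beside 13.4% and 11.8% of all genes tested. *Mthfd2*, a mitochondrial enzyme of one-carbon metabolism, had normalized counts of 2497, 2796 and 3114 in the controls and 3913, 3942 and 4188 after DHT (log2 fold change 0.52, SE 0.073, limma with Benjamini-Hochberg adjusted p = 0.0021), with all DHT values above all controls. *Shmt2*, the mitochondrial serine hydroxymethyltransferase that works beside it (log2 fold change 0.21, SE 0.045, limma with Benjamini-Hochberg adjusted p = 0.018), and *Impdh1*, an enzyme of guanine nucleotide synthesis (log2 fold change 0.21, SE 0.038, limma with Benjamini-Hochberg adjusted p = 0.0082), were higher too. The last of the 4, *Samhd1*, degrades deoxynucleotides (log2 fold change 0.26, SE 0.051, limma with Benjamini-Hochberg adjusted p = 0.012). All lists of other genes, with those described further below, held 258 genes. Of these, 10 were higher (3.88%) and 7 lower (2.71%), beside 6.52% and 4.66% of all genes tested. With 1 library left out, 5 to 16 were higher and 2 to 13 lower.

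The promoters of 6 of the 7 called genes, all but *Ccnd1*, are shown because promoters of mitosis and replication genes are known to carry different short elements. These are the cell cycle genes homology region (CHR), TTTGAA, bound by the MuvB complexes, the CCAAT box bound by NF-Y, and E2F sites, searched here as TTTCCCGC, TTTGGCGC, TTTCGCGC and TTTGCCGC. Both strands of RefSeq windows (GRCm38.p6) from 250 bases before to 50 bases after the start were searched. Words can overlap at their ends, and each was counted. The start is position 1 and the base before it position -1. Of the 42 genes, 33 had a window. Each line gives the 120 bases before and 20 after the start, 5′ to 3′ along the gene, with capitals for these words or their reverse complements (TTCAAA for the CHR, ATTGG for the CCAAT box). The 5 lower mitosis genes come first, then *Pcna*, the higher gene, and *Mcm6*, a replication gene with E2F words. The stretches are *Ccnb2* (chr9:70421535-70421674, minus strand), *Cdc20* (chr4:118437324-118437463, minus strand), *Ube2c* (chr2:164769809-164769948, plus strand), *Cenpf* (chr1:189688067-189688206, minus strand), *Prc1* (chr7:80294331-80294470, plus strand), *Pcna* (chr2:132253161-132253300, minus strand) and *Mcm6* (chr1:128359686-128359825, minus strand).
Ccnb2: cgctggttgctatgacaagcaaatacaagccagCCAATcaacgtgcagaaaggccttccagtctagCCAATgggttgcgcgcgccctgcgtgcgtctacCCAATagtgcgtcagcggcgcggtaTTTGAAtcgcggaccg
Cdc20: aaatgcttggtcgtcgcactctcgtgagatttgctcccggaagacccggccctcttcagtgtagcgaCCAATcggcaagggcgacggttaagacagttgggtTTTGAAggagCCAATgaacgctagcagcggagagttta
Ube2c: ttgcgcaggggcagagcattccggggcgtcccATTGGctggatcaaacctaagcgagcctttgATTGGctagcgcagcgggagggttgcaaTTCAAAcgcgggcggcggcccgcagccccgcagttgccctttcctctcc
Cenpf: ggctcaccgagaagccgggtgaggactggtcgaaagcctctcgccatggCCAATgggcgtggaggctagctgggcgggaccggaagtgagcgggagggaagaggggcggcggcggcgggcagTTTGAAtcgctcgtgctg
Prc1: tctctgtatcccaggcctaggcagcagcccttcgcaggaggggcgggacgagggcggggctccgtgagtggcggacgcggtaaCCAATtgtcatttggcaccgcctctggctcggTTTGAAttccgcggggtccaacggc
Pcna: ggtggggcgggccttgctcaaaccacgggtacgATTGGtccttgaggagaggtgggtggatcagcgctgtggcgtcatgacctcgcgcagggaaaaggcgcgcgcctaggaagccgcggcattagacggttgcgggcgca
Mcm6: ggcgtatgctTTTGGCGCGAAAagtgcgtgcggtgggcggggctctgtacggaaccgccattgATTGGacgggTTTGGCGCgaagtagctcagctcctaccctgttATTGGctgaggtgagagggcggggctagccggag

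All 5 lower mitosis genes held a CHR within 30 bases of the start and a CCAAT box in the window. The CHR began at position 5 in *Ccnb2*, -18 in *Cdc20*, 3 in *Cenpf*, -5 in *Prc1* and, on the other strand, -29 in *Ube2c*. Over all mitosis members with a window, 12 of 17 (70.6%) held a CHR, beside 1 of 11 replication genes (*Mcm2*), 0 of 5 G1 genes, 20.2% of the 27025 genes of the RefSeq table and 14.2% of the 11337 tested genes matched to it. Of the 12 mitosis genes with a window that were not called, 7 held a CHR too, so its presence did not separate called from uncalled genes. Among these uncalled genes, a CHR began at -15 in *Cdk1*, -19 in *Kif11* and -23 in *Top2a*. Of the 12 mitosis genes with a CHR, called or not, 11 held one between positions -30 and 50. E2F words stood in 6 of 11 replication genes and 1 of 17 mitosis genes (*Cdk1*), beside 4.53% of the tested genes. A CCAAT box stood in 15 of 17 mitosis and 8 of 11 replication genes, beside 42.9% of the tested genes. The printed stretch of *Pcna* held a CCAAT box and no CHR or E2F word. These matches describe letters in the windows and show nothing about binding.

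Of the 21 genes of mitosis, 5 (23.8%, beside 4.66% of all genes tested) were lower, 0 were higher and 16 did not pass by limma, while 12 had an unadjusted p under 0.05, all with negative differences (beside 11.8% of all genes tested). *Ccnb2* encodes cyclin B2, a partner of CDK1 at entry into mitosis, and had the largest difference. It lies at chr9:70407692-70421547 (GRCm38, minus strand) with no other gene over its exons. Its normalized counts were 1602, 1712 and 1704 in control replicates 1, 2 and 3 and 1391, 1190.1 and 1204 in DHT replicates 1, 2 and 3. Every DHT library was lower than every control, and DHT replicate 1 was nearest to the controls. The mean was 1672 ± 61.2 in control GCs and 1262 ± 113 after DHT (SD, n = 3 each), a fitted difference of -24.7% (log2 fold change -0.41, SE 0.066, limma with Benjamini-Hochberg adjusted p = 0.0046). *Ccnb2* was called in all 12 alternative fits, with adjusted p by limma between 0.0017 and 0.029.

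*Ube2c* and *Cdc20* act with the anaphase-promoting complex (APC/C), the ubiquitin ligase that ends mitosis. *Ube2c* encodes its ubiquitin-conjugating enzyme, and its normalized counts were 2130.3, 2486 and 2406 in control replicates 1, 2 and 3 and 2042, 1683 and 1808 in DHT replicates 1, 2 and 3. The groups did not overlap, and control replicate 1 and DHT replicate 1 were the nearest values across them (log2 fold change -0.35, SE 0.079, limma with Benjamini-Hochberg adjusted p = 0.024). Exons of *Ube2c* share 592 bases with *Tnnc2* on the other strand. *Cdc20* encodes an activator of the APC/C, and its normalized counts were 2369, 2727 and 2802 in control replicates 1, 2 and 3 and 2339, 1992 and 2051 in DHT replicates 1, 2 and 3. The groups lay apart by little, with DHT replicate 1 just below control replicate 1 (log2 fold change -0.31, SE 0.077, limma with Benjamini-Hochberg adjusted p = 0.036). *Cdc20* had the highest level per kilobase of the mitosis genes (1274 normalized counts per kilobase).

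*Prc1* encodes the protein that bundles microtubules in the spindle midzone before cytokinesis. Its normalized counts were 2944, 3397 and 3230.3 in control replicates 1, 2 and 3 and 2913, 2403 and 2513 in DHT replicates 1, 2 and 3. DHT replicate 1 lay just under control replicate 1, and the other DHT libraries lay further below (log2 fold change -0.29, SE 0.077, limma with Benjamini-Hochberg adjusted p = 0.042). Exons of *Prc1* overlap *Rccd1* on the other strand over 911 bases. *Cenpf* encodes a large kinetochore protein, and its normalized counts were 2199, 2467 and 2517 in control replicates 1, 2 and 3 and 2141, 1937 and 1836 in DHT replicates 1, 2 and 3. The groups again did not overlap, with replicate 1 of each group nearest to the other (log2 fold change -0.28, SE 0.069, limma with Benjamini-Hochberg adjusted p = 0.032). Of these 4 genes, all were called without control replicate 1 and without DHT replicate 1, and none was called without control replicate 2, DHT replicate 2 or DHT replicate 3. Without DHT replicate 3, for example, adjusted p by limma was 0.096 for *Ube2c*, 0.13 for *Cdc20*, 0.15 for *Prc1* and 0.12 for *Cenpf*. Without control replicate 3, *Ube2c* alone of the 4 was called, and adjusted p by limma was 0.070 for *Cdc20*, 0.069 for *Prc1* and 0.065 for *Cenpf*.

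**Figure D2:**
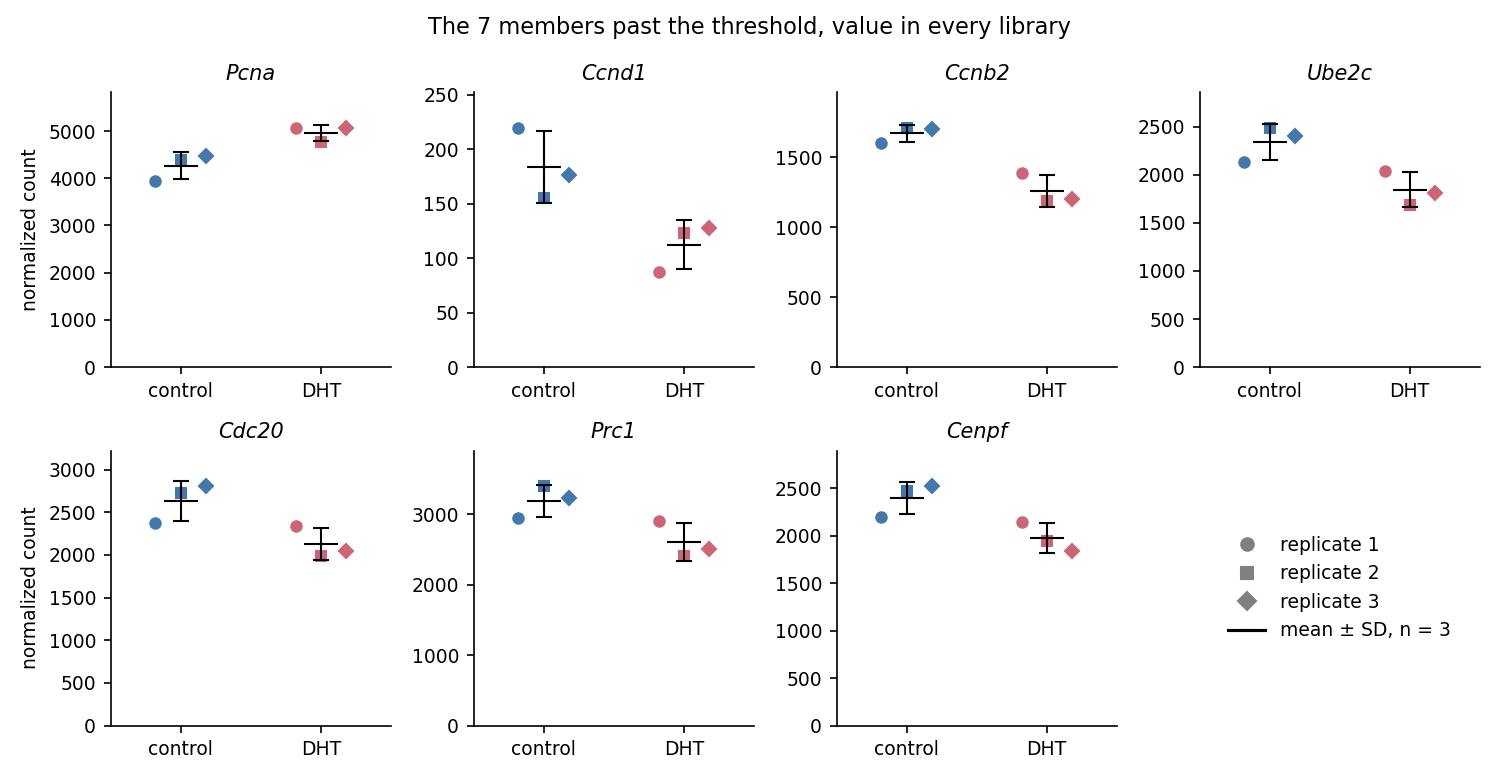
Normalized count (vertical axes from 0) in each library for the 7 genes called, with 1 symbol per replicate and the mean ± SD of 3 libraries in black. For *Cdc20*, *Prc1* and *Cenpf*, the circle of DHT replicate 1 sits just below the circle of control replicate 1, whereas the other libraries lie further apart.

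The 16 mitosis genes that did not pass had 15 negative differences and a median log2 fold change of -0.16. The nearest to the threshold was *Ccnb1*, encoding cyclin B1 (log2 fold change -0.30, SE 0.089, limma with Benjamini-Hochberg adjusted p = 0.063), followed by *Kif20a*, a kinesin of cytokinesis (log2 fold change -0.22, adjusted p = 0.095, same test by limma). The kinases *Plk1*, *Aurka* and *Bub1b*, which act in spindle assembly and its checkpoint, had log2 fold changes of -0.25, -0.20 and -0.18. *Cdk1* itself, the main kinase of mitosis, had -0.15 (adjusted p = 0.22 by limma), and *Ccna2*, encoding cyclin A2, had -0.14. The proliferation marker *Mki67* was not called (log2 fold change -0.12, SE 0.090, limma with Benjamini-Hochberg adjusted p = 0.44, 95% confidence interval -0.33 to 0.079). *Bub1*, *Cenpe*, *Kif11*, *Nusap1* and *Tpx2*, genes of the checkpoint, the kinetochore and the spindle, had log2 fold changes from -0.22 for *Nusap1* to -0.016 for *Kif11*. *Top2a*, the topoisomerase that untangles chromosomes, had normalized counts of 7276, 8322 and 8565 in control replicates 1, 2 and 3 and 8499, 7315 and 7434 in DHT replicates 1, 2 and 3. The groups overlapped (log2 fold change -0.055, SE 0.073, limma with Benjamini-Hochberg adjusted p = 0.70, 95% confidence interval -0.22 to 0.11). *Aurkb*, a kinase of the chromosomal passenger complex, was the 1 mitosis gene with a positive difference (log2 fold change 0.047, adjusted p = 0.82, same test by limma), while *Birc5*, which encodes survivin of the same complex, had non-overlapping lower values after DHT and was not called (-0.18, adjusted p = 0.10 by limma).

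The libraries of each group differed together over the mitosis genes. Control replicate 1 was the lowest control in all 21 of them, and DHT replicate 1 was the highest DHT library in all 21. As the mean deviation from each gene's mean over the 6 libraries, on the log2 scale, the mitosis genes stood at -0.047, 0.18 and 0.15 in control replicates 1, 2 and 3 and at 0.043, -0.17 and -0.16 in DHT replicates 1, 2 and 3. Control replicate 1 therefore lay below DHT replicate 1, and the groups overlapped. The replication genes stood at -0.16, 0.041 and -0.0056 in the controls and at 0.068, 0.0046 and 0.049 after DHT, with control replicate 1 the lowest control in 11 of 13 genes, and these groups overlapped too. The mean of the mitosis genes minus that of the replication genes was 0.11, 0.14 and 0.15 in the controls and -0.026, -0.18 and -0.21 after DHT, without overlap. This contrast was not among the planned results, was not tested and was not set beside other sets of genes. For the G1 genes the deviations were 0.049, 0.029 and 0.036 in the controls and -0.030, -0.063 and -0.020 after DHT, which did not overlap with *Ccnd1* included. Over the 7 G1 genes other than *Ccnd1*, a choice made after seeing the data, they were -0.033, 0.015 and -0.0029 in the controls and 0.065, -0.043 and -0.00084 after DHT, and the groups overlapped. Control replicate 1 also had the fewest recovered reads of the controls and DHT replicate 1 the most of the DHT libraries. The part of depth in these values was not tested.

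**Figure D3:**
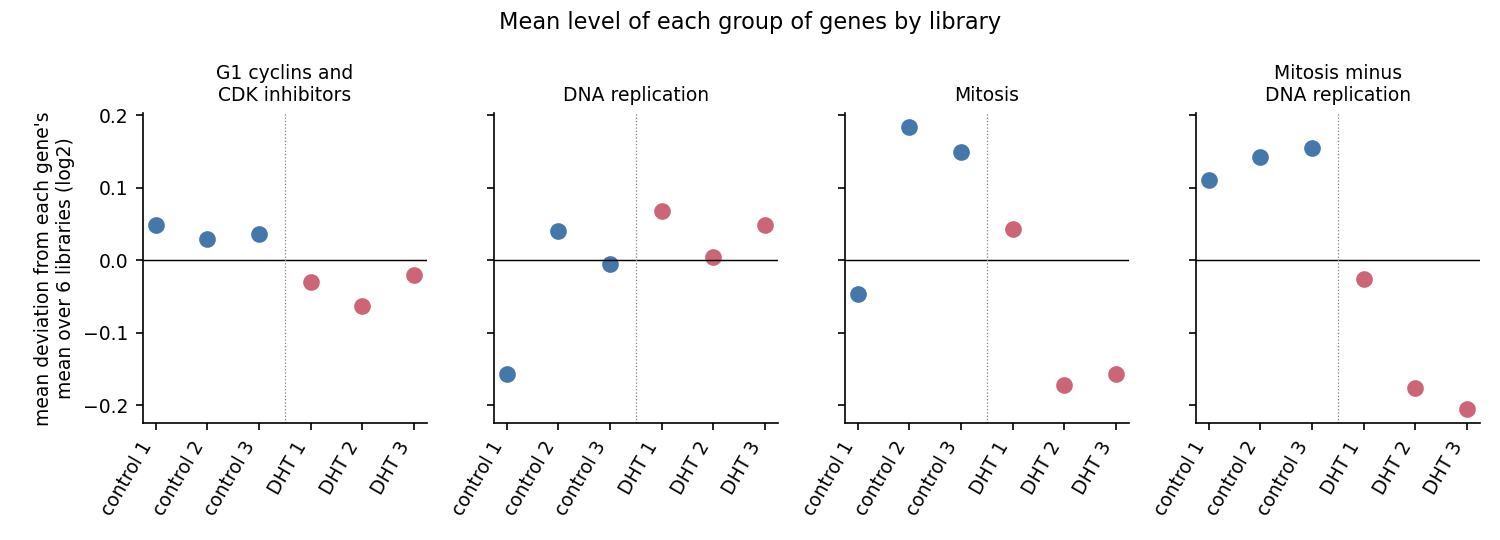
Mean log2 deviation of the G1, replication and mitosis genes from each gene's mean over 6 libraries, and the mitosis mean minus the replication mean, with 1 point per library (control blue, DHT red). In the mitosis panel control replicate 1 (-0.047) lies below DHT replicate 1 (0.043). In the last panel, a contrast that was not planned or tested, all 3 controls lie above all 3 DHT libraries.

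With control replicate 1 left out, 10 mitosis genes were lower and neither *Ccnd1* nor *Pcna* was called. These 10 were the 5 above with *Ccnb1*, *Kif20a*, *Plk1*, *Tpx2* and *Birc5*. Without DHT replicate 1, 9 mitosis genes were lower. Without DHT replicate 2 or DHT replicate 3, *Ccnb2* was the 1 gene of the 42 still called. The median log2 fold change of the mitosis genes ranged from -0.26 to -0.14 with each library left out in turn, that of the replication genes from 0.012 to 0.13 and that of the G1 genes from -0.074 without control replicate 2 to -0.016 without control replicate 3.

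Other mitosis genes were examined in lists as well. Of 29 genes of the spindle and cytokinesis, 2 were lower (6.90%, beside 4.66% of all genes tested) and 0 higher by limma. An unadjusted p under 0.05 was found for 12, all with negative differences, beside 11.8% of all genes tested. Of the 29 differences 26 were negative (median log2 fold change -0.14), as were 8337 of the 16292 over all genes. The lower genes were *Hmmr*, a spindle protein that also binds hyaluronan (log2 fold change -0.36, SE 0.093, limma with Benjamini-Hochberg adjusted p = 0.041), and *Aspm*, which acts at the spindle poles (log2 fold change -0.33, SE 0.085, limma with Benjamini-Hochberg adjusted p = 0.038). Of 32 kinetochore and centromere genes, 1 was lower (3.12%), *Ska2*, part of a complex that couples kinetochores to microtubules. Its normalized counts were 1363, 1413 and 1271 in the controls and 1064, 1020.0 and 1001 after DHT, with all DHT values lower (log2 fold change -0.39, SE 0.054, limma with Benjamini-Hochberg adjusted p = 0.0022). Of 30 genes of mitotic entry, the checkpoint and the APC/C, 1 was lower (3.33%), *Nek2*, a centrosome kinase (log2 fold change -0.27, SE 0.072, limma with Benjamini-Hochberg adjusted p = 0.042). Of 19 cohesin and condensin genes, 0 passed by limma and 2 had an unadjusted p under 0.05, 1 in each direction, beside 25.2% of all genes tested.

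Stress and repair genes were examined beside p21. Of 20 genes of the p53 response, 1 was higher and 1 lower by limma (5% each, beside 6.52% and 4.66% of all genes tested). An unadjusted p under 0.05 was found for 2 with positive and 6 with negative differences, beside 13.4% and 11.8% of all genes tested. *Gadd45a*, a growth arrest gene also induced apart from p53, had normalized counts of 3196, 3015 and 3471 in the controls and 4389.8, 4731 and 5211 after DHT, with all DHT values above all controls (log2 fold change 0.56, SE 0.070, limma with Benjamini-Hochberg adjusted p = 0.0012). *Perp*, a membrane protein induced by p53, had 619, 603 and 522 in the controls and 317, 359 and 315 after DHT, with all DHT values below all controls (log2 fold change -0.81, SE 0.090, limma with Benjamini-Hochberg adjusted p = 0.00067). *Rprm*, encoding Reprimo, had the largest absolute difference of the listed genes and did not pass, with normalized counts of 81.1, 105 and 128 in the controls and 68.5, 26.2 and 52.2 after DHT (log2 fold change -1.16, SE 0.33, limma with Benjamini-Hochberg adjusted p = 0.054). All its DHT values lay below all controls. *Trp53*, encoding p53 itself, had a log2 fold change of 0.00079 (adjusted p = 0.99 by limma) and *Mdm2*, its ubiquitin ligase, -0.14 (adjusted p = 0.22). Of 20 genes of replication stress and repair, 1 was higher (5%, beside 6.52% of all genes tested), *Xrcc3*, a gene of DNA repair (log2 fold change 0.41, SE 0.081, limma with Benjamini-Hochberg adjusted p = 0.012). Of the 17 listed genes called, 6 were called with each library left out in turn (*Fbxw7*, *Mthfd2*, *Impdh1*, *Ska2*, *Gadd45a* and *Perp*). *Samhd1* and *Xrcc3* were lost without DHT replicate 2 (adjusted p = 0.062 and 0.058 by limma), and *Wdhd1* was lost in all 6 such fits. Of the 17 calls, 5, 8 and 5 were lost without control replicate 1, 2 or 3 and 4, 10 and 9 without DHT replicate 1, 2 or 3, with adjusted p of at most 0.15 by limma.

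**Figure D4:**
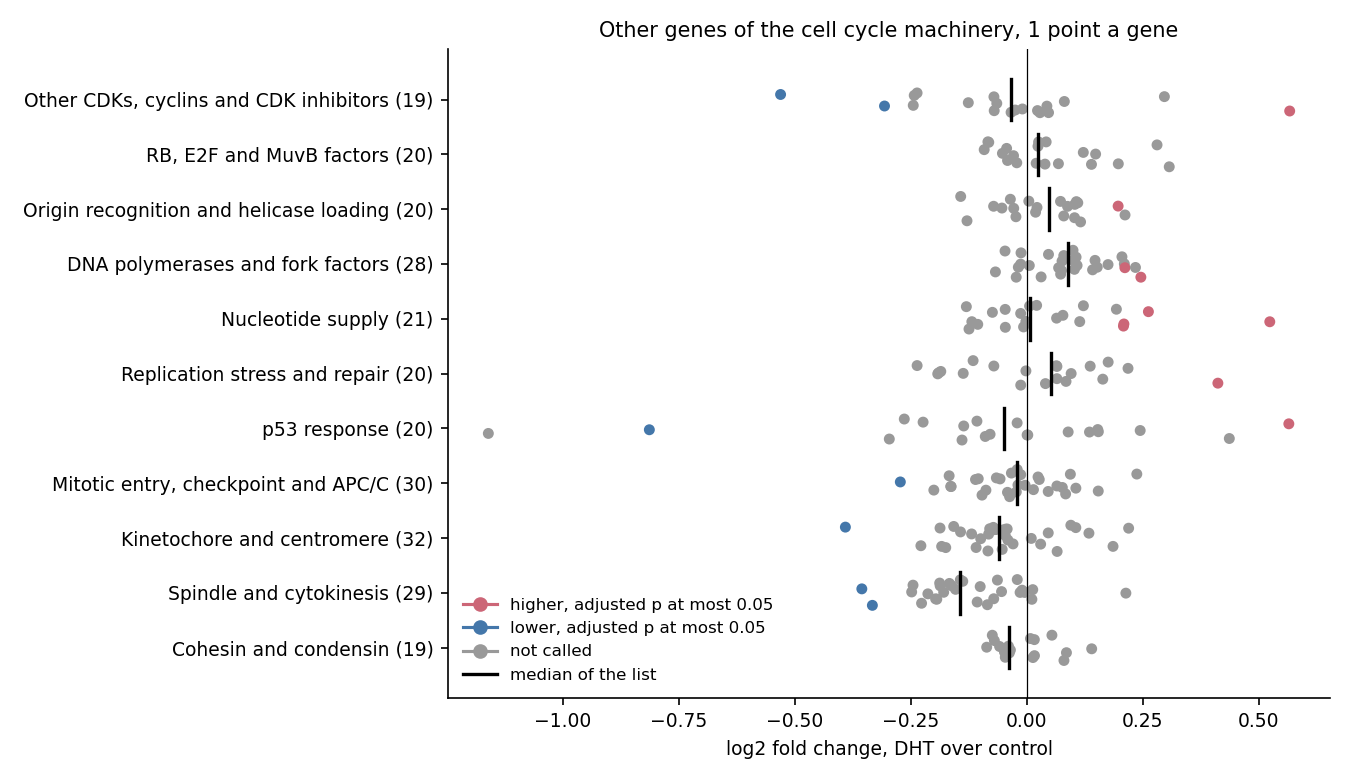
Log2 fold change (DHT over control) of 258 other genes of the cell cycle machinery in 11 lists, 1 point a gene, with genes called higher in red and lower in blue and the list median as a black bar. The spindle and cytokinesis list has the lowest median (-0.14) and the DNA polymerase list the highest (0.09), and most points lie near 0.

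By level per kilobase of exon, averaged over the 6 libraries, the 42 genes ranged from 31.4 normalized counts for *Ccnd1* to 1936 for *Rrm2*. *Rrm2*, *Cdkn1b* (1927) and *Pcna* (1922) had nearly the same mean level, and their ranges over libraries overlapped. *Ccnd2* (1626), *Cdkn1a* (1392), *Cdc20* (1274) and *Mcm7* (1073) followed. Among all genes of the table with an exon length, *Rrm2* lay at percentile 94.7 and *Ccnd1* at percentile 25.6. By mean level, *Ccne1* (101), encoding cyclin E1, and *Ccnd1* stood below the other genes. The range of *Ccne1* over libraries overlapped that of *Cdc6* (103).

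**Figure D5:**
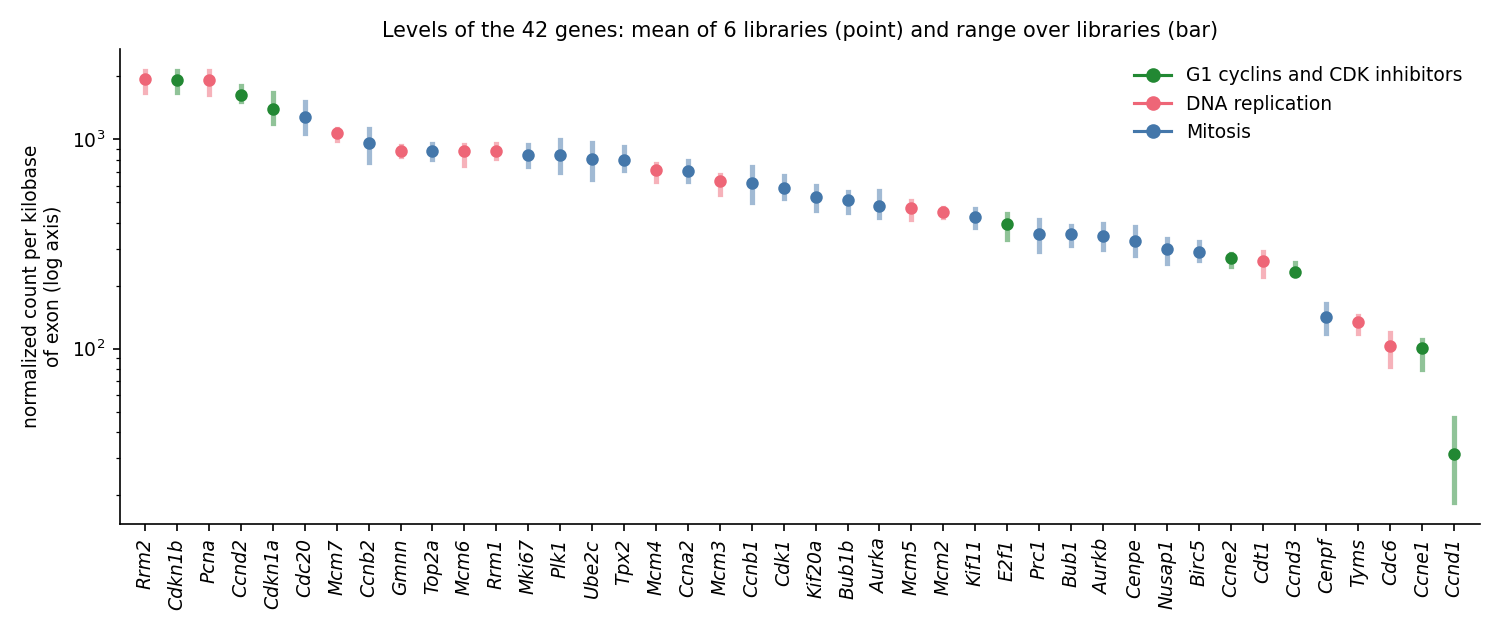
Normalized count per kilobase of exon (log axis) of the 42 genes in descending order, with the mean of 6 libraries as a point and the range over libraries as a bar, coloured by role. *Rrm2*, *Cdkn1b* and *Pcna* lead, and *Ccnd1* is the lowest at 31.4.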

How the data were processed

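RNA-seq was measured in 6 libraries of GCs, 3 per group. Per the labels and the study's methods, the authors trimmed reads with Trimmomatic 0.36, aligned them to GRCm38 with STAR 2.5.2b and counted unique exonic reads with featureCounts of Subread 1.5.2. The deposited signal is a normalized count per gene, its reads over the library's DESeq2 size factor. The deposited fold changes and p-values are the authors' comparison and were not used. Dividing each library by its common step gave whole reads for 100% of the values within 0.001 reads, and these were used for depth. The steps that follow were done here. limma 3.58.1 (R 4.3.3, intensity trend, no block) was fitted to log2(value + 1) of the 16292 genes whose mean reached 10. A gene was called when its Benjamini-Hochberg adjusted p was 0.05 or less. The pseudocount understates changes of low genes. Single values were tested by exact permutation (scipy 1.17.1). Exon lengths and overlaps came from GENCODE, and promoters from RefSeq. Groups follow the treatment label.

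The members, lists and tests were chosen with earlier results of these data known. Values in every library were given for members called and, in each role group, for the 3 members with the highest level per kilobase and the 2 with the largest absolute difference, and for *Rrm1*, *E2f1* and some listed genes chosen after their values were seen. Of each list, called genes were named, up to 4, beside a few uncalled genes named for their role. The fit was tested on simulated data. Alternatives were other pseudocounts, filters on low values, unweighted TMM scaling written for this work, a replicate block and each library left out.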

Additional observations from a re-analysis of the deposited data

How the results depend on the processing

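Pseudocounts of 0.5 and 8, no filter and TMM scaling gave the same 7 calls among the 42 genes, and a mean of at least 50 added *Rrm1*. With the replicate block, 0 members were higher and 1 lower (*Ccnb2*), and of the 258 listed genes 4 were higher and 2 lower, while calls over all genes fell from 1063 and 760 to 633 and 357. The labels do not say that a shared number marks a shared pool. Deviations from the group means correlated between libraries with the same number at 0.0058, 0.067 and -0.24 and between other pairs at -0.19 to 0.23. Not every library correlated best with its own number. With 3 libraries per group, these correlations cannot decide whether libraries with the same number shared a pool. With each library left out in turn, 0 to 1 members were higher and 1 to 10 lower, and 5 to 16 listed genes were higher and 2 to 13 lower. Over these fits the log2 fold change of *Ccne1* ranged from 0.14 to 0.36 and that of *Top2a* from -0.13 to -0.0093, neither called in any, while the log2 fold change of *Cdkn1b* ranged from -0.16 to 0.0070 (positive without control replicate 1 or 3), that of *Mcm7* from -0.027 to 0.054 (negative without control replicate 1 or DHT replicate 1) and that of *Rrm2* from -0.12 to 0.051 (positive without control replicate 2, control replicate 3 or DHT replicate 2). The difference in the *Ccnd2* share was -0.13 points without division by exon length and ranged from -0.45 to 0.44 with 1 library left out. These changes of sign concern differences that were not called, and the cause was not tested. The planned count tests on whole reads were not run.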
